A study of Mus musculus with 15 samples.

Results

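The genes described here carry glucose into the cell and through glycolysis. They are the glucose transporter genes Slc2a1 and Slc2a3, the hexokinase genes Hk1 and Hk2, the phosphofructokinase gene Pfkp, Aldoa, Pgk1, Pkm, the lactate dehydrogenase gene Ldha and the pyruvate dehydrogenase kinase gene Pdk1. These 10 genes were chosen by name, out of 56092 named genes in the deposited table, and all 10 were measured in every library. Earlier results of these data were known at the choice, so their counts and medians beside those of all genes are descriptions. They were followed in cells sorted from cultures of the mouse embryonic stem cell line STR-KI, in a study that asked how Brachyury levels relate to the lineage potential of neuromesodermal progenitors (NMPs), the bipotent cells of the caudal embryo that form spinal cord and paraxial mesoderm. Every group carries the same genotype, Sox2::mCherry/WT and Tbxt::GFP/WT, in which 1 allele of Sox2 reports through mCherry and 1 allele of Tbxt, the Brachyury gene, reports through GFP. Cells in N2B27 medium received 10 ng/mL FGF2 for 48 h, then FGF2 with 5 µM of the WNT activator CHIRON99021 (CHIR) for 24 h, and double-positive cells were the NMP group (3 libraries). After a further 48 h in FGF/CHIR, GFP+ cells (Tbxt 48 h, 2 libraries) and mCherry+ cells (Sox2 48 h, 2 libraries) were sorted. At 7 d there were double-negative cells from GFP+ cells kept in FGF/CHIR (Tbxt 7 d, 3 libraries). The mCherry+ cells gave 4 more groups at 7 d, which were FGF/CHIR DN (double negative, 1 library), FGF/CHIR Sox2+ (1 library), FGF DN (1 library) and FGF Sox2+ (2 libraries). Each group is a sort from a culture of 1 cell line, so a level is an average over whatever cells the gate held.

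Glycolysis splits glucose into pyruvate in the cytosol and yields ATP without oxygen. Glucose enters through facilitative transporters, is trapped by hexokinase, is committed to the pathway by phosphofructokinase, and leaves as pyruvate. Lactate dehydrogenase reduces pyruvate to lactate, or the pyruvate dehydrogenase complex oxidizes it in the mitochondrion. In the mouse tail bud, where NMPs reside, glycolytic activity is known to be graded, highest in the posterior progenitors and lower in differentiating presomitic mesoderm, and many of these genes are classical targets of the hypoxia-inducible factors (HIF) and of MYC.

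Levels are counts scaled to a library sum of 1000000 (CPM). In 14 libraries the inferred depth was 3.43 to 9.88 M reads, where 3 reads are worth 0.304 to 0.874 CPM. FGF Sox2+ replicate 2 was far shallower, with 0.799 M reads and 3 reads worth 3.76 CPM. These floors cover counting error only. The share of CPM from mitochondrial genes was 4.04 to 6.98%, and Tbxt 7 d replicate 1 had the highest share and 3.43 M reads, the lowest depth but for that shallow library. Marker lists followed the sorts in part. The summed level of Sox2, Tbxt, Nkx1-2 and Cdx2 was 1442 to 1680 CPM in NMPs, 702 to 724 CPM in Tbxt 48 h cells, 984 to 991 CPM in Sox2 48 h cells and 1.19 to 5.24 CPM in Tbxt 7 d cells. It was 697 CPM in FGF/CHIR Sox2+, 534 to 541 CPM in FGF Sox2+, 65.4 CPM in FGF/CHIR DN and 135 CPM in FGF DN cells. The reporters of Sox2 and Tbxt set the gates, so this list is not independent of the sorts. The presomitic mesoderm list (Tbx6, Msgn1, Dll1, Lfng) summed to 324 to 391 CPM in Tbxt 48 h cells, and the mesenchyme list (Col1a1, Col1a2, Col3a1, Pdgfra) to 3820 to 5817 CPM in Tbxt 7 d cells. Other lists did not separate the sorts in this way. The neural progenitor list (Sox1, Pax6, Fabp7, Hes5) summed to 15.5 to 25.7 CPM in Tbxt 48 h and 20.8 to 24.0 CPM in Sox2 48 h cells, the mesenchyme list to 138 to 148 CPM in Tbxt 48 h and 215 to 239 CPM in Sox2 48 h cells, and the neuron list (Elavl3, Dcx, Stmn2, Tubb3) to 31.7 to 144 CPM in Tbxt 7 d and 9.04 to 12.4 CPM in Tbxt 48 h cells. The DN sorts from Sox2-derived cultures held markers that their label does not name, with the pluripotency list (Pou5f1, Nanog, Zfp42, Dppa5a) at 333 CPM in FGF/CHIR DN and 152 CPM in FGF DN cells, against 3.31 CPM in FGF/CHIR Sox2+ and 29.1 to 135 CPM in FGF Sox2+ cells. The NMP sort held this list too, at 223 to 327 CPM, against 12.2 to 12.5 CPM in Sox2 48 h and 3.63 to 4.89 CPM in Tbxt 48 h cells. The part of such cells in the differences from NMPs given below was not tested. The endoderm list (Sox17, Foxa2, Afp, Ttr, Apoa1) reached 499.8 CPM in FGF DN cells and 54.4 CPM in FGF/CHIR DN cells, against at most 8.76 CPM in every other group. The labels do not say whether libraries of a group came from separate cultures, so the p-values measure only the spread between these libraries, which may be technical. Groups with 1 library have no replicate check of their own and took the spread of the replicated groups.

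Differences are log2 fold changes ± SE on log2(CPM + 1), the first group named minus the second, from a limma fit across all 12943 genes tested, and "rose", "fell", "higher" and "lower" are used only where the adjusted p is under 0.05. At 48 h, the genes that moved from the NMP level all fell. In Tbxt 48 h cells 5 of the 10 genes fell and 0 rose against NMPs, both glucose transporters among them, where 18.4% of all genes tested changed (10.5% fell, 7.82% rose). In Sox2 48 h cells 2 of 10 fell and 0 rose against NMPs (7.92% of all genes changed, 5.27% fell, 2.65% rose). Set against Sox2 48 h cells, Tbxt 48 h cells were lower in 2 of 10 and higher in 0 (3.9% changed, 1.85% lower, 2.05% higher). Between 48 h and 7 d in the Tbxt branch, 4 of 10 fell and 3 rose, in a comparison where 54.2% of all genes changed (23.5% fell, 30.7% rose). That share of 7 in 10 stands little above the background, and the size and the direction of each change are the result there. The gate also went from GFP+ to double negative, so time and sort cannot be told apart in any Tbxt 7 d against Tbxt 48 h result. Tbxt 7 d cells were lower than FGF Sox2+ cells in 4 of 10 and higher in 0 (47.6% changed, 26.5% lower, 21.1% higher), and lower than FGF/CHIR DN cells in 3 of 10 and higher in 0 (16.7% changed, 8.86% lower, 7.88% higher). Along the Sox2 branch, FGF Sox2+ cells were higher than Sox2 48 h cells in 2 of 10 and lower in 0 (24.7% changed, 18.2% higher, 6.51% lower). Time and medium change together in that comparison and cannot be told apart. Within the Sox2-derived cultures at 7 d, FGF/CHIR cells were lower than FGF cells in 2 of 10 and higher in 0, averaged over both sorts (13.8% changed, 7.86% lower, 5.94% higher), and DN cells differed from Sox2+ cells in 0 of 10, averaged over both media (14.1% changed, 7.12% higher, 6.99% lower). Counted by libraries that did not overlap between the groups, which takes no account of their spread, 9 of 10 genes did so in Sox2 48 h against NMPs (43.3% of all genes), 8 in Tbxt 48 h against NMPs (53.2%), 7 in Tbxt 48 h against Sox2 48 h (56.5%), 7 in FGF Sox2+ against Sox2 48 h (64.4%) and 7 in Tbxt 7 d against Tbxt 48 h (69.4%). It was 4 in Tbxt 7 d against FGF Sox2+ (62.6%), 0 in DN against Sox2+ (30.3%), 3 in FGF/CHIR against FGF (29.4%) and 6 in Tbxt 7 d against FGF/CHIR DN (71%). The median log2 difference of the 10 genes was -0.77 in Tbxt 48 h cells against NMPs, beside -0.02 over all genes, and -0.49 in Sox2 48 h cells against NMPs, beside -0.01 over all genes. In the other comparisons it was between -0.53 and -0.11.

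**Figure D1:**
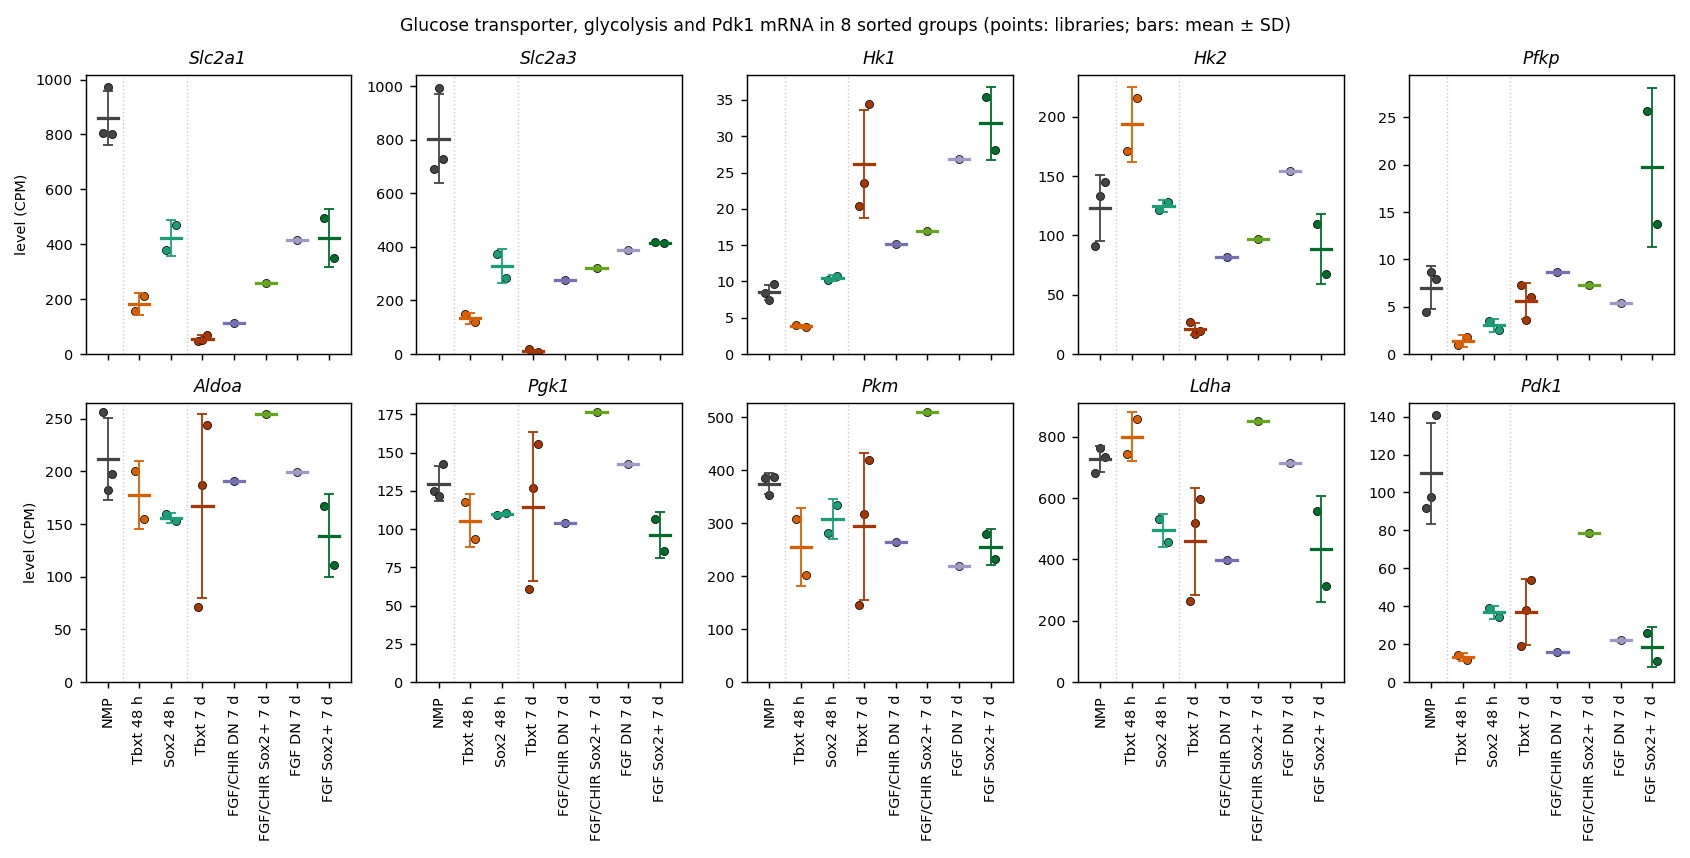
Level of each gene in CPM (linear axis from 0, 1 panel per gene) in every library of the 8 groups; points are libraries, the long bar is the group mean and the whiskers are the SD where a group has 2 or 3 libraries. Slc2a1 and Slc2a3 are highest in the 3 NMP libraries and lowest in the 3 Tbxt 7 d libraries, Hk1 and Hk2 run in opposite directions between Tbxt 48 h and Tbxt 7 d, and Aldoa, Pgk1, Pkm and Ldha spread widely over the Tbxt 7 d libraries.

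The start of transcription of 9 of the 10 genes had an entry in a RefSeq promoter table for the mouse build GRCm38.p6, which holds 250 bases before and 50 bases after each annotated start; Slc2a3 had none. The windows printed are those of the genes with the steepest differences, which include Hk1 and Hk2 with opposite changes. Hk1 and Pdk1 each have 2 windows; the one printed is the one that holds a motif, and the other (chr10:62379859-62380158 for Hk1, chr2:71874654-71874953 for Pdk1) holds neither. They are Slc2a1 (chr4:119108495-119108794, plus strand), Hk1 (chr10:62340372-62340671, minus strand), Hk2 (chr6:82774405-82774704, minus strand), Pfkp (chr13:6648722-6649021, minus strand) and Pdk1 (chr2:71872974-71873273, plus strand), each written 5′ to 3′ on the strand of the gene. Capitals mark ACGTG and GCGTG on either strand, the core letters of the hypoxia response element, and overlapping matches run together.
Slc2a1: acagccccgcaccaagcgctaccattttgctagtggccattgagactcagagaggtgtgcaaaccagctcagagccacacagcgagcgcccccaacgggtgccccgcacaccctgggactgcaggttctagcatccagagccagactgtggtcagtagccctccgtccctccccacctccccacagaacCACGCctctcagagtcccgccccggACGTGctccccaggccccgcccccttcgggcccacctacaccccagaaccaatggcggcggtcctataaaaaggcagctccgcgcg
Hk1: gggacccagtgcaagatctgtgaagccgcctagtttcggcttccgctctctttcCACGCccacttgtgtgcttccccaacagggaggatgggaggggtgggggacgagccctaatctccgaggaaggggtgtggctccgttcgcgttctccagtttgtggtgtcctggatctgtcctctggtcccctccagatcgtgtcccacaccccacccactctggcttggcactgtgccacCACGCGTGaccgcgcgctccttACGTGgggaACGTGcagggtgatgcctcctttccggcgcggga
Hk2: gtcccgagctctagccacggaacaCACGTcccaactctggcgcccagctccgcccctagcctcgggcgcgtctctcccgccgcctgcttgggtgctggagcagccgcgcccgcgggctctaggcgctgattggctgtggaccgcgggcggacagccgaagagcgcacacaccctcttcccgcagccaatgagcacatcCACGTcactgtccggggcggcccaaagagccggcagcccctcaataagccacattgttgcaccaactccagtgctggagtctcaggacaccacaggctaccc
Pfkp: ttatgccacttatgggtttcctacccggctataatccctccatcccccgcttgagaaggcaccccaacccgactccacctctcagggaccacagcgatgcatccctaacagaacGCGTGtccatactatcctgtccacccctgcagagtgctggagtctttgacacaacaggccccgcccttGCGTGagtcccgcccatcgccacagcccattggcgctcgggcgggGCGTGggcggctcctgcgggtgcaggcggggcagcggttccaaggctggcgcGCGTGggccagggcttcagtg
Pdk1: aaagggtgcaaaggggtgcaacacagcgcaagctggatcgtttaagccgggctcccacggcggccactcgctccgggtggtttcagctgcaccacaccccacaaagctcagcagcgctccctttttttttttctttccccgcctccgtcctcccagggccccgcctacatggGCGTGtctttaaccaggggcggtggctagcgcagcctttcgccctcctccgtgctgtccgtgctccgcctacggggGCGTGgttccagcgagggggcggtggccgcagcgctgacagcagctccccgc
The 9 genes had 15 windows, since 5 of them have more than 1 annotated start. ACGTG was found in 8 of the 15 windows and in 7 of the 9 genes, where 19.6% of the 32851 windows in the table hold it. Windows of 1 gene can overlap, and 2 of the 3 Aldoa windows overlap over most of their length and hold the same single match, which is counted in both. GCGTG was found in 6 of the 15 windows and in 5 of the 9 genes, where 32.4% of all windows hold it. Either motif was in 11 of the 15 windows, and in at least 1 window of each of the 9 genes, where 43.8% of all windows hold 1 or both. The shares are per window, and no share per gene was computed. A gene with more than 1 window has more chances of a match. The E-box letters CACGTG, which contain ACGTG, were found in 1 of the 15 windows, the first of Ldha, where 7.15% of all windows hold them. In the windows above, Slc2a1 holds each motif 1 time, Hk1 holds ACGTG 2 times and GCGTG 3 times, Hk2 holds ACGTG 2 times, Pfkp holds GCGTG 4 times and Pdk1 holds GCGTG 2 times. A match describes the letters of the window only.

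Slc2a1 encodes GLUT1, the basal glucose transporter of most dividing cells. Its level was 155 and 209.9 CPM in Tbxt 48 h cells and 377 and 471 CPM in Sox2 48 h cells, against 804, 972 and 801 CPM in NMPs. No library of one of these 3 groups reached into another, and the order was NMP, Sox2 48 h, Tbxt 48 h. Slc2a1 fell by 2.24 ± 0.21 in Tbxt 48 h cells against NMPs (adjusted p = 2.37e-05), a 4.72-fold difference. It fell by 1.02 ± 0.21 in Sox2 48 h cells against NMPs (adjusted p = 0.00906; 0.107 without Sox2 48 h replicate 1). Tbxt 48 h cells were also lower than Sox2 48 h cells, with a log2 fold change of -1.22 ± 0.23 (adjusted p = 0.00972), a call that was lost without Sox2 48 h replicate 2 (adjusted p = 0.133) or without Tbxt 48 h replicate 1 (adjusted p = 0.072).

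At 7 d, Slc2a1 stood at 47.8, 49.9 and 70.8 CPM in Tbxt 7 d cells, the 3 lowest values of the 15 libraries. It fell by 1.69 ± 0.21 in Tbxt 7 d against Tbxt 48 h cells (adjusted p = 2.48e-05). In the Sox2-derived cultures it was 114 CPM in FGF/CHIR DN, 260.2 CPM in FGF/CHIR Sox2+, 417 CPM in FGF DN, and 497 and 349 CPM in FGF Sox2+ cells. Both FGF/CHIR libraries thus lay under all 3 FGF libraries. The medium difference, FGF/CHIR minus FGF over both sorts, was -1.27 ± 0.21 (adjusted p = 0.00179), and leaving out the shallow FGF Sox2+ replicate 2 gave -1.40. It averages -1.86 in DN and -0.68 in Sox2+ cells, and each of these groups but FGF Sox2+ has 1 library. Marker lists also stood at unlike levels in these libraries, though the ranges of the pluripotency and endoderm lists overlapped between the media. Over the FGF/CHIR and the FGF libraries, the neural progenitor list summed to 0.914 to 32.8 and to 51.8 to 1017 CPM, the neuron list to 16.6 to 34.2 and 59.3 to 546 CPM, the pluripotency list to 3.31 to 333 and 29.1 to 152 CPM, and the endoderm list to 0.822 to 54.4 and 2.12 to 499.8 CPM. The part of these cells in the medium differences of Slc2a1, and of the genes given for the media further on, was not tested. Tbxt 7 d cells were lower than FGF Sox2+ cells, at -2.89 ± 0.21 on the log2 scale (adjusted p = 4.09e-07). They were also lower than FGF/CHIR DN cells, the other double-negative group in the same medium, at -1.03 ± 0.26 (adjusted p = 0.0189; 0.105 when only these groups were fitted). The FGF Sox2+ level of 423 ± 104 CPM and the Sox2 48 h level of 424 ± 65.8 CPM (SD, n = 2 each) overlapped, and that comparison did not pass the threshold.

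Slc2a3 encodes GLUT3, a high-affinity glucose transporter of the early embryo and of neurons. It had 149 and 120.0 CPM in Tbxt 48 h cells and 372 and 283 CPM in Sox2 48 h cells, against 691, 993 and 726 CPM in NMPs. The groups did not overlap and kept the order seen for Slc2a1. In Tbxt 48 h cells Slc2a3 fell by 2.56 ± 0.40 against NMPs (adjusted p = 0.00162), while the Sox2 48 h and the Tbxt 48 h against Sox2 48 h comparisons did not pass the threshold (adjusted p = 0.08 and 0.144). In Tbxt 7 d cells it was nearly gone, at 18.1, 4.75 and 7.11 CPM. Every other library held at least 120.0 CPM. Slc2a3 fell by 3.81 ± 0.40 in Tbxt 7 d against Tbxt 48 h cells (adjusted p = 2.08e-05), and the log2 fold change was -4.30 without Tbxt 7 d replicate 1, which has the highest of the 3 values.

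The Sox2-derived cultures kept Slc2a3. FGF/CHIR DN held 278 CPM, FGF/CHIR Sox2+ 321 CPM, FGF DN 388 CPM and FGF Sox2+ 418 and 413 CPM, against 283 to 372 CPM in Sox2 48 h cells. Tbxt 7 d cells were lower than FGF Sox2+ cells at -5.44 ± 0.40 on the log2 scale (adjusted p = 2.14e-06) and lower than FGF/CHIR DN cells at -4.86 ± 0.50 (adjusted p = 0.000169). These were the largest differences of any of the 10 genes in the 9 comparisons. FGF/CHIR DN and Tbxt 7 d cells share medium, sort and day, and they also differ in the pluripotency list, which summed to 333 CPM in FGF/CHIR DN and 0.792 to 2.502 CPM in Tbxt 7 d cells, and in the mesenchyme list, at 1384 CPM in FGF/CHIR DN. The part of these other cells in the Slc2a3 difference was not tested. In RNA from sorted pools, fewer cells with a transcript and less transcript per cell cannot be told apart, here and in all results that follow.

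The ratio of the 2 transporter mRNAs, Slc2a1 CPM over Slc2a3 CPM within a library, was 2.65, 10.5 and 9.96 in Tbxt 7 d cells. In the other 12 libraries it lay between 0.41 (FGF/CHIR DN) and 1.75 (Tbxt 48 h replicate 2). Both transporters were low in Tbxt 7 d cells, and Slc2a3 lost the larger share.

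**Figure D2:**
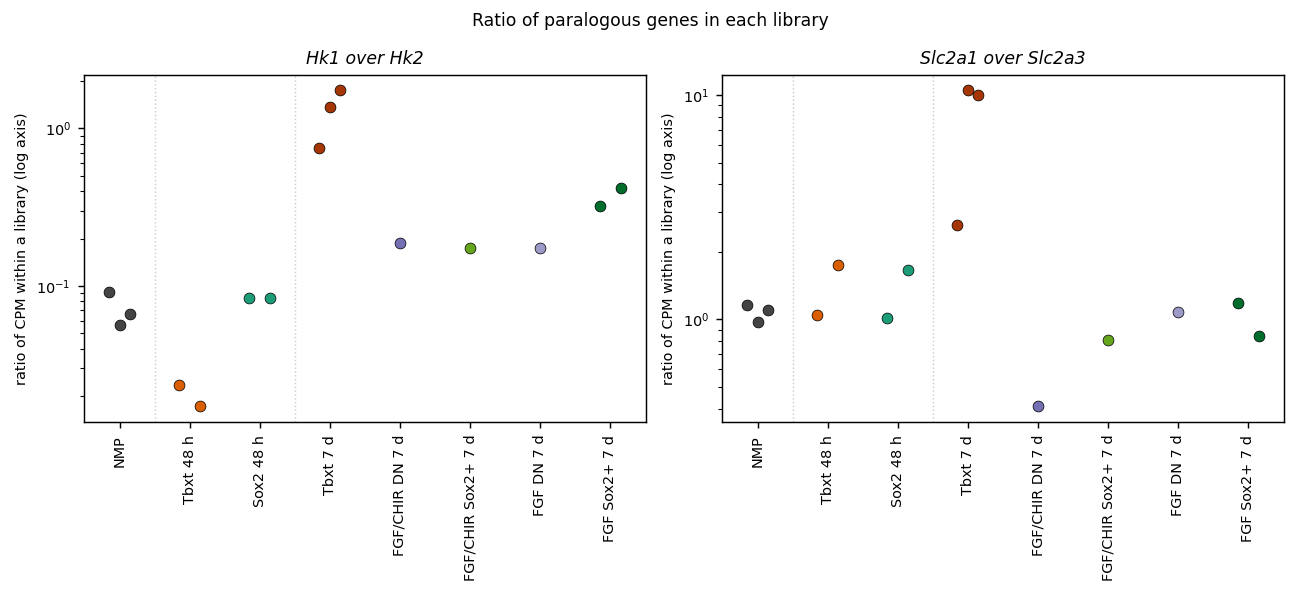
Ratio of CPM values within each library (log axis) for Hk1 over Hk2 and for Slc2a1 over Slc2a3, by group; each point is 1 library. The 3 Tbxt 7 d libraries have the highest values in both panels, 0.753 to 1.75 for Hk1 over Hk2 and 2.65 to 10.5 for Slc2a1 over Slc2a3.

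Hexokinases phosphorylate glucose and so hold it in the cell. Hk1 encodes the housekeeping form that prevails in brain and red cells, and Hk2 the inducible form of muscle, embryo and tumours. Hk1 stood at 3.999 and 3.71 CPM in Tbxt 48 h cells and 10.2 and 10.7 CPM in Sox2 48 h cells, against 8.36, 7.48 and 9.64 CPM in NMPs. Tbxt 48 h libraries were the lowest of all 15, and Sox2 48 h libraries lay just above the NMP range. Hk1 fell by 0.96 ± 0.23 in Tbxt 48 h cells against NMPs (adjusted p = 0.0115; 0.107 without Tbxt 48 h replicate 2 and 0.0911 after quantile normalization). Tbxt 48 h cells were also below Sox2 48 h cells, at -1.24 ± 0.25 (adjusted p = 0.0144). That call was lost without any single one of the 4 libraries, with adjusted p-values of 0.0511 and 0.131 without Sox2 48 h replicates 1 and 2 and of 0.0565 and 0.141 without Tbxt 48 h replicates 1 and 2.

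By 7 d, Hk1 was higher in both branches. Its level was 20.4, 23.6 and 34.5 CPM in Tbxt 7 d cells, 15.2 CPM in FGF/CHIR DN, 17.0 CPM in FGF/CHIR Sox2+, 26.9 CPM in FGF DN, and 35.4 and 28.2 CPM in FGF Sox2+ cells. All 8 libraries of day 7 lay above all 7 earlier ones. Hk1 rose by 2.45 ± 0.23 in Tbxt 7 d against Tbxt 48 h cells (adjusted p = 2.36e-06), a 5.46-fold difference, and by 1.504 ± 0.25 in FGF Sox2+ against Sox2 48 h cells (adjusted p = 0.00104). The FGF Sox2+ cells had also changed medium, and FGF/CHIR Sox2+ cells, which had not, stood at 17.0 CPM. The Tbxt 7 d and FGF Sox2+ values overlapped, and their comparison did not pass the threshold. FGF/CHIR cells were lower than FGF cells at -0.82 ± 0.23 (adjusted p = 0.0345), with adjusted p = 0.0689 without FGF Sox2+ replicate 1, 0.0512 with no filter, 0.0512 after quantile normalization and 0.0769 in a fit of these groups alone. Reads of Hk1 came out whole in 6 of 15 libraries within 0.01 reads, and fractional values, as division of reads between features gives, make its level less certain.

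Hk2 was high in Tbxt 48 h cells, at 171 and 216 CPM, and had 121 and 128 CPM in Sox2 48 h cells, against 91.3, 133 and 145 CPM in NMPs. Tbxt 48 h libraries lay above the other 5, but neither comparison with NMPs passed the threshold, nor did Tbxt 48 h against Sox2 48 h (adjusted p = 0.0821 for Tbxt 48 h against NMPs). At 7 d it dropped to 27.1, 17.2 and 19.8 CPM in Tbxt 7 d cells, the 3 lowest values of the series. FGF/CHIR DN cells held 81.6 CPM, FGF/CHIR Sox2+ 97.4 CPM, FGF DN 155 CPM and FGF Sox2+ 109.6 and 67.6 CPM. Hk2 fell by 3.14 ± 0.25 in Tbxt 7 d against Tbxt 48 h cells (adjusted p = 7.13e-07), an 8.79-fold difference and the lowest adjusted p of the 10 genes in that comparison. Tbxt 7 d cells were also lower than FGF Sox2+ cells, at -1.99 ± 0.25 (adjusted p = 3.86e-05), and lower than FGF/CHIR DN cells, at -1.91 ± 0.31 (adjusted p = 0.00173). The Hk2 calls held under each omission of 1 replicate that was run; FGF/CHIR DN has 1 library and could not be left out.

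Since Hk1 and Hk2 moved in opposite directions, the ratio of Hk1 CPM to Hk2 CPM within a library spans the whole series. It was 0.0562 to 0.0916 in NMPs, 0.0234 and 0.0172 in Tbxt 48 h cells and 0.0843 and 0.0838 in Sox2 48 h cells. At 7 d it was 0.753, 1.37 and 1.75 in Tbxt 7 d cells, 0.174 to 0.186 in the 3 Sox2-derived groups with 1 library, and 0.323 and 0.417 in FGF Sox2+ cells. The lowest and the highest ratios of the series are thus both in the Tbxt branch. These are ratios of CPM values between libraries, not of protein or activity.

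Pfkp encodes the platelet form of phosphofructokinase, which makes fructose 1,6-bisphosphate at the committed step of glycolysis. Its mRNA spanned 0.911 to 25.7 CPM over the series. It had 0.911 and 1.86 CPM in Tbxt 48 h cells and 3.53 and 2.51 CPM in Sox2 48 h cells, against 4.41, 8.68 and 7.90 CPM in NMPs. The NMP range lay above both 48 h groups. Pfkp fell by 1.73 ± 0.37 in Tbxt 48 h cells against NMPs (adjusted p = 0.0067; 0.0633 without Tbxt 48 h replicate 1). At 7 d the values were 7.28, 3.56 and 6.06 CPM in Tbxt 7 d cells, 8.69 CPM in FGF/CHIR DN, 7.30 CPM in FGF/CHIR Sox2+, 5.37 CPM in FGF DN, and 25.7 and 13.8 CPM in FGF Sox2+ cells. FGF Sox2+ libraries were the highest of all 15. Pfkp rose by 2.31 ± 0.41 in FGF Sox2+ against Sox2 48 h cells (adjusted p = 0.00149), and the log2 fold change was 2.74 without the shallow replicate 2. The FGF Sox2+ cells had also changed medium, and FGF/CHIR Sox2+ cells, which had not, stood at 7.30 CPM. In Tbxt 7 d against Tbxt 48 h cells it rose by 1.46 ± 0.37 (adjusted p = 0.00485; 0.0601 without Tbxt 48 h replicate 1 and 0.0557 after quantile normalization). Tbxt 7 d cells were lower than FGF Sox2+ cells, at -1.63 ± 0.37 (adjusted p = 0.00302). At these levels the size of a change depends on the pseudocount, and with 4 in place of 1 the log2 fold change was -1.01 in Tbxt 48 h against NMPs (adjusted p = 0.0182), 1.71 in FGF Sox2+ against Sox2 48 h (0.00115) and 0.83 in Tbxt 7 d against Tbxt 48 h (0.017). FGF Sox2+ cells were also the group with the highest neural progenitor list, which summed to 589 to 1017 CPM there and to at most 51.8 CPM elsewhere. The part of that in the Pfkp level was not tested.

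Aldoa splits fructose 1,6-bisphosphate, Pgk1 makes the first ATP of the pathway and Pkm makes pyruvate. None of these 3 genes passed the threshold in any of the 9 comparisons with all libraries in the fit. Aldoa was at 200.4 and 155 CPM in Tbxt 48 h cells and 159 and 153 CPM in Sox2 48 h cells, against 256, 182 and 198 CPM in NMPs. Pgk1 was at 118 and 93.3 CPM in Tbxt 48 h cells and 109 and 110.5 CPM in Sox2 48 h cells, against 125, 122 and 143 CPM in NMPs. Pkm was at 308 and 203 CPM in Tbxt 48 h cells and 282 and 335 CPM in Sox2 48 h cells, against 385, 353 and 388 CPM in NMPs. For Pgk1 and Pkm both 48 h groups lay under every NMP library, by less than the fit could call.

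At 7 d these 3 genes split the Tbxt 7 d libraries. Aldoa had 71.6, 187 and 243 CPM, Pgk1 60.9, 127 and 156 CPM, and Pkm 146, 317 and 420.2 CPM in Tbxt 7 d replicates 1, 2 and 3. Replicate 1 held the lowest value of all 15 libraries for each of the 3. Its mitochondrial share was 6.98%, against 6.85 and 6.24% in the other Tbxt 7 d libraries, and it had the lowest Ldha and, within its group, the lowest Pdk1. Without replicate 1, Pgk1 was higher in Tbxt 7 d than in Tbxt 48 h cells by 0.42 (adjusted p = 0.0449) and Pkm by 0.54 (adjusted p = 0.0277). Against FGF Sox2+ cells, the same omission gave calls for Aldoa (0.64, adjusted p = 0.0237), Pgk1 (0.55, adjusted p = 0.0138), Pkm (0.52, adjusted p = 0.0385) and Pdk1 (1.34, adjusted p = 0.004), all higher in Tbxt 7 d cells. The count of the 10 genes then went to 8 in that comparison, 4 higher and 4 lower, and to 9 in Tbxt 7 d against Tbxt 48 h cells, 5 higher and 4 lower. In the Sox2-derived cultures, FGF/CHIR Sox2+ had the highest Pgk1 (177 CPM) and Pkm (509.7 CPM) of all libraries, and 255 CPM of Aldoa. FGF/CHIR DN had 191 CPM of Aldoa, 104 CPM of Pgk1 and 265 CPM of Pkm. FGF DN had 199.5, 143 and 219.7 CPM of the same genes in that order. FGF Sox2+ cells had 167 and 111 CPM of Aldoa, 107 and 85.8 CPM of Pgk1, and 279.7 and 232 CPM of Pkm.

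The levels of these genes are the least certain. The row Gm57854 had the same value as Aldoa within 0.311% in every library, so the Aldoa level depends on how reads were assigned between these rows. Reads came out whole within 0.01 reads in 4 of 15 libraries for Aldoa, 2 for Pgk1, 1 for Ldha and 0 for Pkm, against 15 of 15 for Pfkp and Pdk1 and 12 of 15 for Slc2a1, Slc2a3 and Hk2. Division of reads between features gives such fractions, and processed pseudogenes of these enzymes are common in the mouse genome; the counting step was not known.

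Ldha encodes the subunit of lactate dehydrogenase that favours lactate. It was at 744 and 857 CPM in Tbxt 48 h cells and 533 and 456 CPM in Sox2 48 h cells, against 683, 764 and 734 CPM in NMPs. Sox2 48 h libraries lay below the other 5, and Tbxt 48 h overlapped NMPs, but none of the 48 h comparisons passed the threshold. In Tbxt 7 d cells it had 263, 518 and 596 CPM, under both Tbxt 48 h libraries. Ldha fell by 0.88 ± 0.32 in Tbxt 7 d against Tbxt 48 h cells (adjusted p = 0.0355). That call was lost without Tbxt 48 h replicate 1 (adjusted p = 0.0848) or replicate 2 (0.172), with no filter (0.0815), after quantile normalization (0.0563) and in a fit of the 2 groups alone (0.0882), and without Tbxt 7 d replicate 1 it was -0.52 (adjusted p = 0.048). The Sox2-derived cultures ranged widely, with 399.7 CPM in FGF/CHIR DN, 852 CPM in FGF/CHIR Sox2+, 713 CPM in FGF DN, and 556 and 312 CPM in FGF Sox2+ cells.

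Pdk1 encodes a kinase that switches off pyruvate dehydrogenase and so holds back the oxidation of pyruvate in the mitochondrion. It had 14.6 and 11.8 CPM in Tbxt 48 h cells and 39.4 and 34.5 CPM in Sox2 48 h cells, against 91.6, 97.8 and 141 CPM in NMPs. The 3 groups did not overlap. In Tbxt 48 h cells Pdk1 fell by 2.95 ± 0.40 against NMPs (adjusted p = 0.000619), a 7.72-fold difference and the largest of the 10 genes at 48 h. In Sox2 48 h cells it fell by 1.53 ± 0.40 (adjusted p = 0.0416), a call lost in 9 of 15 alternatives, among them the omission of any 1 of the 5 libraries (adjusted p = 0.0766 to 0.241). At 7 d, Pdk1 was 19.2, 38.0 and 54.0 CPM in Tbxt 7 d cells, above both Tbxt 48 h libraries and below all NMP libraries. It rose by 1.31 ± 0.40 in Tbxt 7 d against Tbxt 48 h cells (adjusted p = 0.017; 0.111 without Tbxt 48 h replicate 2, 0.0517 without Tbxt 7 d replicate 3 and 0.0855 after quantile normalization). In the Sox2-derived cultures FGF/CHIR DN had 16.0 CPM, FGF/CHIR Sox2+ 78.4 CPM, FGF DN 22.3 CPM and FGF Sox2+ 26.1 and 11.3 CPM. FGF/CHIR Sox2+ was the one library after the NMP stage above 54.0 CPM.

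**Figure D3:**
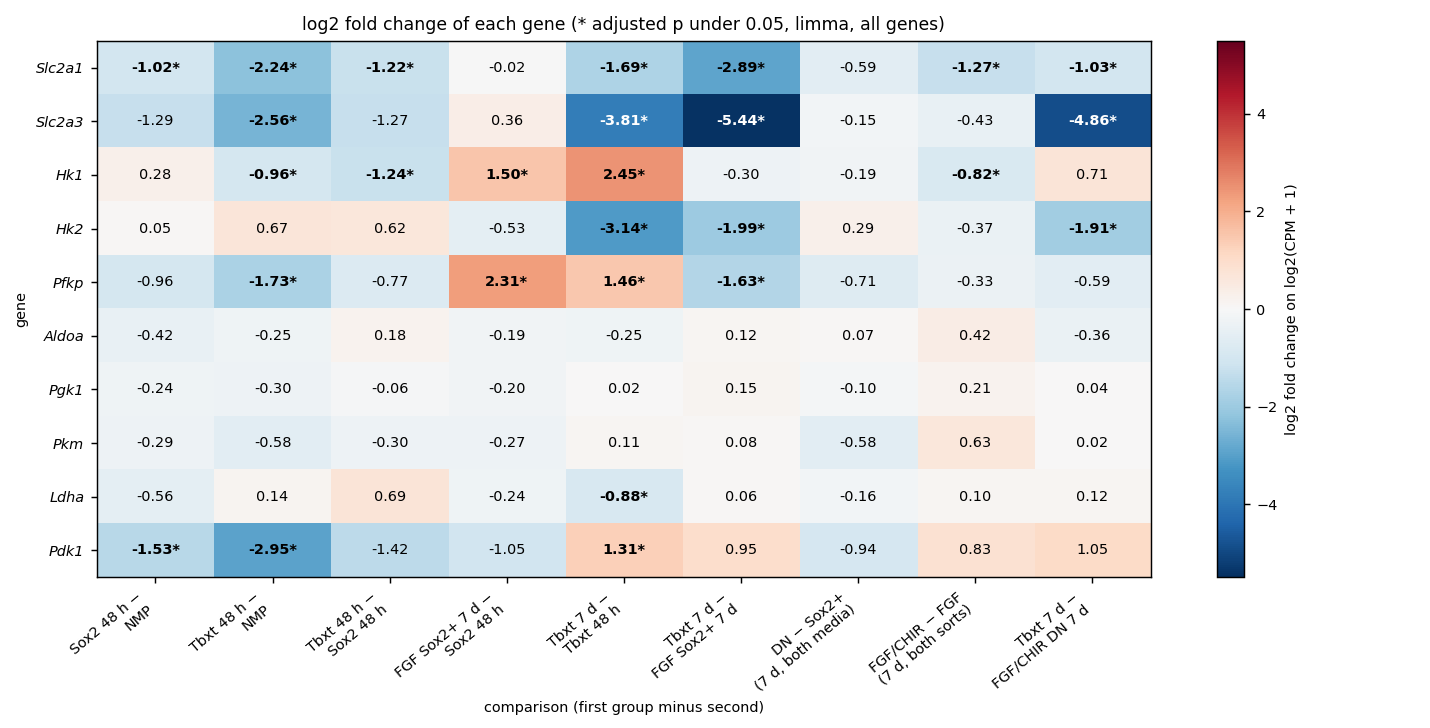
log2 fold change on log2(CPM + 1) for each gene (rows) in the 9 comparisons (columns, first group minus second), coloured from blue (lower in the first group) to red (higher); an asterisk marks an adjusted p under 0.05 from limma across all genes. The transporters have most of the strongest blue cells, Hk1 and Hk2 have opposite colours in Tbxt 7 d against Tbxt 48 h (2.45 and -3.14), and Aldoa, Pgk1 and Pkm have no asterisk.

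DN and Sox2+ cells of the Sox2-derived cultures did not differ in any of the 10 genes by limma with adjustment over all genes, and 2 of 10 had an unadjusted p under 0.05. With array weights, Slc2a1 (-0.59, adjusted p = 0.019) and Pdk1 (-0.94, adjusted p = 0.0314) were lower in DN cells, and in a fit of these 4 groups alone Pkm was (-0.58, adjusted p = 0.0278). For several genes the libraries stood differently in each medium. In FGF/CHIR, the DN library was below the Sox2+ library for Slc2a1 (114 against 260.2 CPM), Ldha (399.7 against 852 CPM), Pgk1 (104 against 177 CPM), Pkm (265 against 509.7 CPM) and Pdk1 (16.0 against 78.4 CPM). In FGF, the DN library was above both Sox2+ libraries for Hk2 (155 against 109.6 and 67.6 CPM), Aldoa (199.5 against 167 and 111 CPM), Pgk1 (143 against 107 and 85.8 CPM) and Ldha (713 against 556 and 312 CPM). The test of the difference between the media, an interaction examined after these values were seen, called 0 of the 10 genes in limma after adjustment, with 4 of 10 (Slc2a1, Pfkp, Ldha and Pdk1) at an unadjusted p under 0.05, where 2.44% of all genes were called. With 1 library in 3 of the 4 groups, library and group cannot be told apart here.

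Other genes of glucose use were read from 9 lists with 90 genes, of which 67 passed the filter on low values. In Tbxt 48 h cells against NMPs, 5 of the 67 rose and 7 fell, or 17.9%, beside 18.4% of all genes. Of the 10 tested genes in the list of other glycolytic enzymes 2 fell, Eno1 (enolase, -1.15 ± 0.35, adjusted p = 0.0459) and Ldhb (the lactate dehydrogenase subunit that favours pyruvate, -0.84 ± 0.19, adjusted p = 0.00885), and 0 rose. Eno1 had 561 and 346 CPM in Tbxt 48 h cells against 1167, 793 and 1012 CPM in NMPs. Of 16 tested HIF target genes, 3 fell and 2 rose. Ddit4, a stress-induced inhibitor of mTOR signalling, fell to 129.7 and 71.1 CPM in Tbxt 48 h cells, against 382, 363 and 432 CPM in NMPs (-2.02 ± 0.25, adjusted p = 0.000244), and Bnip3, a mitophagy receptor, fell by 1.40 ± 0.38 (adjusted p = 0.027), while the adenylate kinase gene Ak4 rose by 0.97 ± 0.27 (adjusted p = 0.0259). Among the 8 HIF and MYC factors, Mycl fell by 1.97 ± 0.21 (adjusted p = 5.76e-05) and Mycn and Max rose, by 1.28 ± 0.38 (adjusted p = 0.0369) and 0.42 ± 0.13 (adjusted p = 0.0471). In the pentose phosphate pathway, which branches from glucose 6-phosphate, Taldo1 fell by 0.85 ± 0.15 (adjusted p = 0.00211) and Rpia rose by 1.19 ± 0.19 (adjusted p = 0.000963). In Sox2 48 h cells 3 of the 67 fell and 1 rose (5.97%, beside 7.92% of all genes). The lactate exporter gene Slc16a3 had 2.78 and 2.06 CPM in Sox2 48 h cells against 38.9, 46.8 and 47.4 CPM in NMPs (-3.73 ± 0.83, adjusted p = 0.0261), Mycl fell by 1.29 ± 0.21 (adjusted p = 0.00213) and Rpia rose by 0.94 ± 0.19 (adjusted p = 0.00809).

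In Tbxt 7 d against Tbxt 48 h cells, 20 of the 67 rose and 15 fell, 52.2% beside 54.2% of all genes. Of the 8 other glucose transporters listed, 4 passed the filter of 5 CPM in 2 libraries, and Slc2a4 and Slc2a10 passed it through the Tbxt 7 d libraries alone, so no count or test of this list is given. Slc2a4, which encodes the insulin-responsive transporter GLUT4 of muscle and fat, had 23.9, 17.0 and 20.5 CPM in Tbxt 7 d cells, against 0.709 and 0.338 CPM in Tbxt 48 h cells, 1.03 to 4.11 CPM in the other 7 d groups and at most 2.07 CPM in NMPs and Sox2 48 h cells. Slc2a10, another facilitative transporter gene, had 5.82, 7.92 and 12.4 CPM in Tbxt 7 d cells, against at most 0.101 CPM in Tbxt 48 h cells and at most 2.68 CPM in any other group. Both genes were thus seen mainly in the Tbxt 7 d libraries, which is also what let them into the fit. The counts over the 67 genes in each comparison include such genes.

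Of the 10 other glycolytic enzymes, 3 rose and 1 fell in that comparison, where 30.7% of all genes rose and 23.5% fell. Pfkm, the muscle form of phosphofructokinase, had 32.3, 26.5 and 40.6 CPM in Tbxt 7 d cells against 10.3 and 8.78 CPM in Tbxt 48 h cells (1.68 ± 0.24, adjusted p = 8.02e-05), Ldhb rose by 1.19 ± 0.19 (adjusted p = 0.000195) and the triose phosphate isomerase gene Tpi1 by 1.14 ± 0.35 (adjusted p = 0.0171). Among the carriers of lactate and pyruvate, 3 of 5 rose and 1 fell. Slc16a1, the monocarboxylate transporter MCT1, had 46.2, 22.0 and 22.1 CPM in Tbxt 7 d cells against 174 and 225 CPM in Tbxt 48 h cells (-2.76 ± 0.28, adjusted p = 7.8e-06). Its chaperone gene Bsg rose by 1.30 ± 0.32 (adjusted p = 0.00506) and the mitochondrial pyruvate carrier gene Mpc2 by 1.38 ± 0.15 (adjusted p = 8.52e-06). Of 10 tested genes of pyruvate dehydrogenase and its other regulators, 2 rose and 3 fell, with Pdp1, a phosphatase that reactivates the complex, at 1.04 ± 0.38 (adjusted p = 0.0356), and the subunit genes Dlat and Pdha1 at -1.01 ± 0.14 (adjusted p = 8.15e-05) and -0.57 ± 0.16 (adjusted p = 0.00745). Of 7 tested pentose phosphate genes, 3 fell and 0 rose. Rpe, Rpia and Pgd fell by 1.02 ± 0.19, 0.91 ± 0.19 and 0.75 ± 0.14 on the log2 scale.

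Of the 8 HIF and MYC factors, 4 fell and 2 rose in Tbxt 7 d against Tbxt 48 h cells, where 23.5% of all genes fell and 30.7% rose. Myc had 10.5, 0.99 and 1.05 CPM in Tbxt 7 d cells against 54.2 and 108 CPM in Tbxt 48 h cells (-4.43 ± 0.66, adjusted p = 0.000318). Mycn had 11.6, 3.37 and 3.69 CPM in Tbxt 7 d cells against 76.8 and 91.0 CPM in Tbxt 48 h cells (-3.73 ± 0.38, adjusted p = 9.02e-06). Arnt, the partner of the HIF alpha subunits, rose by 1.43 ± 0.18 (adjusted p = 3.66e-05). Of 16 tested HIF target genes, 4 rose and 2 fell, with P4ha1, a collagen prolyl hydroxylase, at 1.68 ± 0.23 (adjusted p = 6.69e-05), Bnip3 at 1.66 ± 0.38 (adjusted p = 0.00343) and Ak4 at -2.92 ± 0.27 (adjusted p = 2.28e-06). In the proliferation list (Mki67, Top2a, Ccnb1, Ccnb2, Cdk1, Mcm2, Pcna) 4 of 7 genes fell, beside 23.5% of all genes. This list summed to 727 to 905 CPM in Tbxt 7 d cells and 1259 to 1362 CPM in Tbxt 48 h cells. Its part in the change of Hk2, Slc2a1 or Slc16a1 was not tested.

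**Figure D4:**
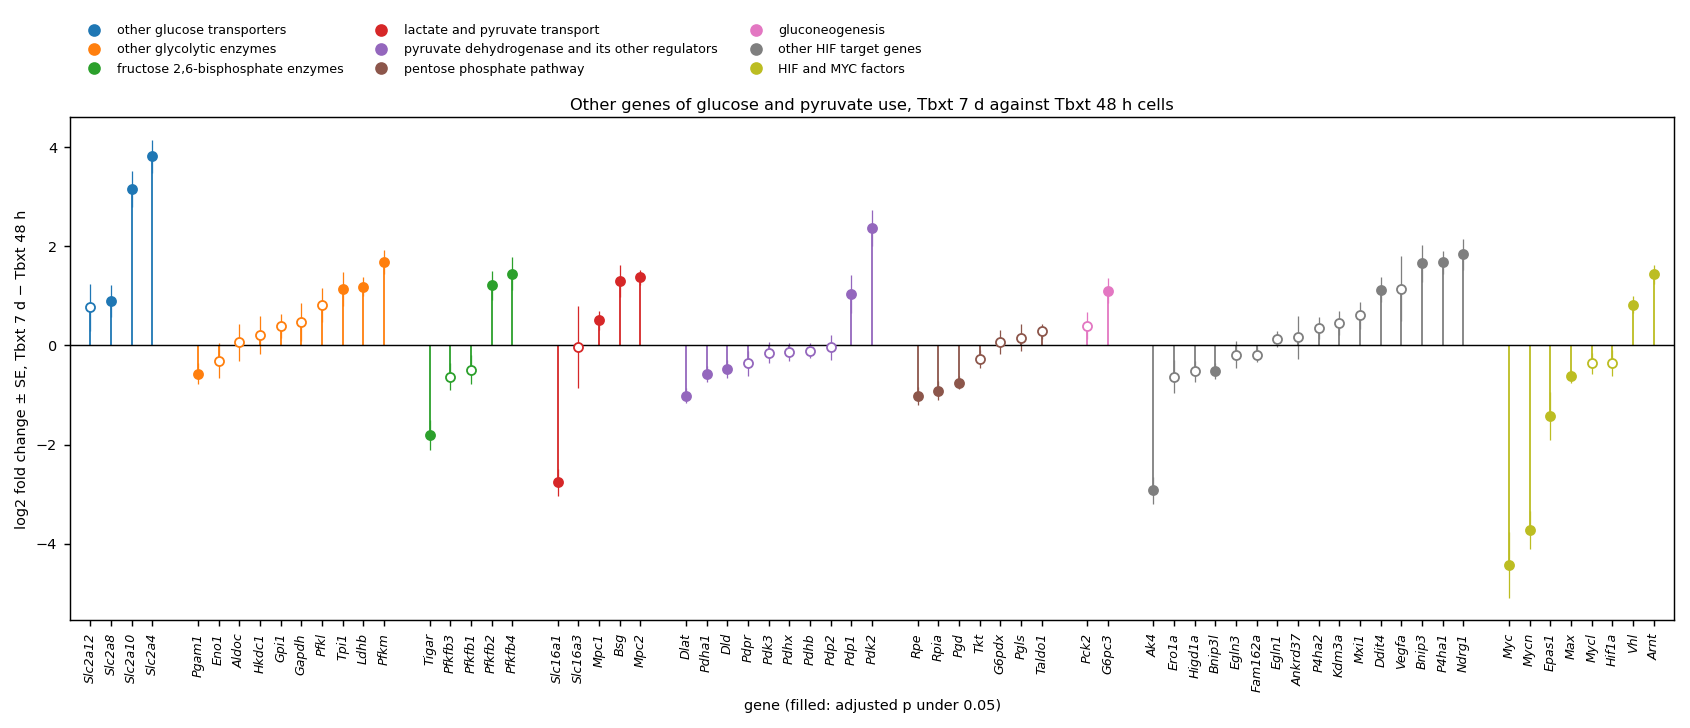
log2 fold change ± SE (log2(CPM + 1)), Tbxt 7 d minus Tbxt 48 h, of the 67 tested genes in 9 lists of glucose and pyruvate use, with colour for the list; filled points have an adjusted p under 0.05. The lowest point is Myc at -4.43, and there are 20 filled points above 0 and 15 below. The highest point, Slc2a4, is among the filled ones. Slc2a4 and Slc2a10 passed the filter through the Tbxt 7 d libraries alone, so the height and fill of their points are not read as a result.

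Tbxt 7 d cells differed from FGF Sox2+ cells in 33 of these 67 genes, 15 higher and 18 lower (49.3%, beside 47.6% of all genes). Mycl (-2.78 ± 0.21, adjusted p = 5.46e-07), Mycn (-3.67 ± 0.38, adjusted p = 1.39e-05) and Slc16a1 (-2.88 ± 0.28, adjusted p = 7.63e-06) were lower, and P4ha1 (2.12 ± 0.23, adjusted p = 1.33e-05) and Pfkm (1.39 ± 0.24, adjusted p = 0.000436) were higher. Against FGF/CHIR DN cells, 9 of the 67 were lower and 4 higher (19.4%, beside 16.7%), with Slc16a1 lower at -1.52 ± 0.35 (adjusted p = 0.0135). In FGF Sox2+ against Sox2 48 h cells, 17 of the 67 rose and 3 fell (29.9%, beside 24.7%). Mycl rose by 1.74 ± 0.23 (adjusted p = 0.00022), Ndrg1, a HIF target, by 1.79 ± 0.34 (adjusted p = 0.00238) and Ldhb by 0.77 ± 0.21 (adjusted p = 0.0171), and Eno1 fell by 1.22 ± 0.39 (adjusted p = 0.0414). The Tbxt 7 d and FGF Sox2+ comparisons share libraries, so their values are side by side and not independent.

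Between media at 7 d, 9 of the 67 were lower and 2 higher in FGF/CHIR than in FGF cells (16.4%, beside 13.8%). The 2 FGF/CHIR libraries had 82.9 CPM (DN) and 138 CPM (Sox2+) of Slc16a1, against 536 CPM in FGF DN and 239.9 and 190.3 CPM in FGF Sox2+ cells (-1.66 ± 0.29, adjusted p = 0.0028). Mycn and Mycl were lower as well, at -2.18 ± 0.39 (adjusted p = 0.00359) and -1.85 ± 0.21 (adjusted p = 0.00013), and Pdk3, another pyruvate dehydrogenase kinase, was higher at 0.99 ± 0.21 (adjusted p = 0.00837). In DN against Sox2+ cells, 7 of the 67 were higher and 6 lower (19.4%, beside 14.1%). Of 16 tested HIF target genes, 3 were higher and 3 lower. P4ha2 and P4ha1 were among the higher ones, at 3.65 ± 0.23 (adjusted p = 7.2e-07) and 2.37 ± 0.24 (adjusted p = 3.42e-05). From the other lists, Mycl and Ldhb were lower, at -1.30 ± 0.21 (adjusted p = 0.0015) and -0.82 ± 0.19 (adjusted p = 0.0143). Hkdc1, a hexokinase-like gene that passed the filter through the 2 DN libraries alone and is given without a test, stood at 61.9 CPM in FGF DN and 7.31 CPM in FGF/CHIR DN cells, the 2 libraries that carry the endoderm list at 499.8 and 54.4 CPM, and at most 1.25 CPM in any other library. The part of those cells in the Hkdc1 level was not tested.

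Within the series, the genes closest in pattern to each of the 10 were ranked by Pearson r of log2(CPM + 1) over the 15 libraries. These are descriptions, since libraries of a group share their cells and the same group structure drives every r. Slc2a3 was closest to Lama5 (r = 0.99), Trim6 (0.97) and Nherf1 (0.96), and Slc2a1 to Atmin, Dscam and Frmd5 (0.96 each). Hk2 was closest to Ramac and Xpot (0.98 each) and Eif3j1 (0.97), Hk1 to 2310039H08Rik (0.93), Klf3 and Prr14 (0.92 each), and Pdk1 to Fam241b (0.95), Ddit4 (0.87) and Rab33a (0.86). For Pfkp it was Dmd (0.90) and for Ldha Herc4 (0.84). The nearest row to Aldoa and to Pgk1 was Gm57854 (r = 1.00 and 0.91), the row with the values of Aldoa, and the 3 nearest to Pkm were predicted genes with r of 0.90 to 0.91. Among the 10 genes themselves, r was 0.91 between Slc2a1 and Slc2a3, 0.91 between Aldoa and Pgk1, 0.85 between Pgk1 and Pkm, and -0.62 between Hk1 and Hk2.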

How the data were processed

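Bulk RNA of 15 libraries in 8 sorted groups was measured. Per the labels, library preparation combined oligo-dT primers, molecular identifiers (UMIs) and tagmentation. Reads were aligned with STAR 2.7 to GRCm39 and handled with SAMtools 1.21, per the submitters' processing notes; for the annotation, counting, UMI collapsing and multiply mapped reads, details remain not given in the sources used here. CPM values were deposited by the authors for 78409 rows (counts scaled so that a library sums to 1000000). Rows with no gene name (21909, with 1.10 to 1.81% of CPM) and 92 ERCC rows were left out, and 627 rows sharing 311 symbols were summed, leaving 56092 genes. The table calls Tbxt by its symbol T.

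Depth was inferred from the CPM step worth 1 read. Only 71.1 to 78.7% of values were whole multiples of it within 0.01 reads, so whole reads were not recovered and no count test was run. limma 3.58.1 (R 4.3.3, statmod 1.5.0; limma-trend, robust, two-sided) was run on log2(CPM + 1) for 12943 genes reaching 5 CPM in 2 or more libraries, all groups in 1 fit with 7 residual degrees of freedom, and Benjamini-Hochberg adjustment per comparison at 0.05. The 10 genes and the lists were chosen with earlier results of these data known. Fold changes are printed for the 10 genes only where past the threshold or where an alternative put them past it. From each list, the named genes come from up to 3 per comparison that passed, with the largest change and at least 20 CPM in the higher group; Slc2a4 and Hkdc1, which passed the filter only through the group where they are high, are given as levels, and Slc2a10 was added after its values were seen. Genes of like pattern are the 3 with the highest Pearson r; some are left out for length. Promoter windows are from RefSeq (GRCm38.p6), another build than the alignment, and serve only for their letters. The fit was tested on simulated data. Alternatives were other pseudocounts, a filter at 20 CPM or none, quantile normalization, scaling by median-of-ratios, fitting only the groups compared, array weights, omission of single replicates, and blocking by library number. The interactions, the fit of numbered libraries without a block and a crossed block were added after seeing the data. Tables and figures used pandas 2.3.3, matplotlib 3.10.9 and numpy 2.4.6 in Python 3.11.15.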

Additional observations from a re-analysis of the deposited data

Results flagged for a closer look

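The change between 48 h and 7 d differed between the branches for 5 of the 10 genes. The test was an interaction in the same limma fit, Tbxt 7 d minus Tbxt 48 h set against FGF Sox2+ minus Sox2 48 h, with adjustment over all genes; it was chosen after the data were seen, and 33.6% of all genes were called. Slc2a3 changed by -3.81 in the Tbxt branch and 0.36 in the Sox2 branch, a difference of -4.16 ± 0.59 (adjusted p = 0.000562). Hk2 changed by -3.14 and -0.53 in the Tbxt and Sox2 branches, a difference of -2.61 ± 0.37 (adjusted p = 0.000292), and Slc2a1 by -1.69 and -0.02, a difference of -1.67 ± 0.31 (adjusted p = 0.00152). None of these 3 changes passed the threshold in the Sox2 branch. Pdk1 changed by 1.31 in the Tbxt branch, where the Sox2 branch had -1.05 (not past the threshold), a difference of 2.37 ± 0.60 (adjusted p = 0.0118). Hk1 changed the same way in both, by 2.45 and 1.504, with a difference of 0.95 ± 0.34 (adjusted p = 0.0466). With a pseudocount of 4, its changes in the Tbxt and Sox2 branches were 1.91 and 1.30. The interaction itself was not run under any alternative. The 7 d groups of the branches differ in medium and in the sort as well as in origin, so these cannot be told apart. Sox2-derived cells kept in FGF/CHIR, the medium of the Tbxt branch, were not part of this test. Their Pdk1 level was 78.4 CPM in the Sox2+ library and 16.0 CPM in the DN library, against 34.5 and 39.4 CPM in Sox2 48 h cells.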

How the results depend on the processing

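Of the 27 gene and comparison pairs past the threshold, 16 passed under every alternative that could be run, and of all 377 such alternatives 342 kept the call, 35 lost it and 0 changed sign. The numbers of genes called that moved by over 1.5 times were these. Sox2 48 h against NMPs had 2 called, and 1 with no filter, with median-of-ratios scaling, with quantile normalization and with the replicate block, 5 with array weights and 4 in a fit of these groups alone. Tbxt 48 h against Sox2 48 h had 2, and 1 with quantile normalization, 4 with array weights and 6 in a fit of these groups alone. FGF Sox2+ against Sox2 48 h had 2, and 1 with a filter at 20 CPM. Tbxt 7 d against Tbxt 48 h had 7, and 4 with quantile normalization. FGF/CHIR against FGF had 2, and 1 with no filter or quantile normalization. DN against Sox2+ had 0, and 2 with array weights and 1 in a fit of these groups alone. Tbxt 7 d against FGF/CHIR DN had 3, and 5 with array weights. The count over the lists of other genes was 144, and 229 with array weights. The array weight estimate stopped before converging and gave NMP replicate 3 a weight of 29.2, against 0.218 to 1.52 in the others.

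Leaving out 1 replicate gave 0 to 1 called in Sox2 48 h against NMPs, 4 to 5 in Tbxt 48 h against NMPs, 0 to 1 in Tbxt 48 h against Sox2 48 h, 2 to 3 in FGF Sox2+ against Sox2 48 h, 5 to 9 in Tbxt 7 d against Tbxt 48 h, 4 to 8 in Tbxt 7 d against FGF Sox2+, 0 in DN against Sox2+, 1 to 2 in FGF/CHIR against FGF, 3 to 5 in Tbxt 7 d against FGF/CHIR DN and 119 to 191 over the other lists. Each omission leaves fewer libraries, and the cause of the changes in these counts was not tested. Without Tbxt 7 d replicate 1, Hk1 and Pdk1 were higher in Tbxt 7 d than in FGF/CHIR DN cells (0.87 and 1.45, adjusted p = 0.0387 and 0.0189). Without FGF Sox2+ replicate 1, Pdk1 was lower in FGF Sox2+ than in Sox2 48 h cells (-1.63, adjusted p = 0.0342). Array weights and fits of the compared groups alone both put Slc2a3 and Ldha (lower in Sox2 48 h than in NMPs), Pkm (lower in Tbxt 48 h than in NMPs) and Slc2a3 and Pdk1 (lower in Tbxt 48 h against Sox2 48 h) past the threshold. Array weights, and not fits of the groups alone, added Pfkp (lower in Sox2 48 h than in NMPs), Pdk1 (higher in Tbxt 7 d than in FGF Sox2+) and Hk1 and Pdk1 (higher in Tbxt 7 d than in FGF/CHIR DN); those of Tbxt 7 d also passed without Tbxt 7 d replicate 1, and Pdk1 against FGF Sox2+ without FGF Sox2+ replicate 1. Fits of the groups alone added Hk2 (higher in Tbxt 48 h than in NMPs and against Sox2 48 h), Ldha (higher in Tbxt 48 h against Sox2 48 h) and Pkm (higher in FGF/CHIR than in FGF). With a pseudocount of 4, Slc2a3 was lower in Sox2 48 h cells than in NMPs (-1.28, adjusted p = 0.0359).

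Same-numbered libraries had deviations that correlated at -0.19 to 0.48 over 21 pairs of libraries, 4 of them over 0.1. These were NMP with Tbxt 48 h libraries (0.48 for number 1, 0.46 for number 2) and Sox2 48 h with FGF Sox2+ libraries (0.20 for each number). In a group of 2 libraries the deviations mirror each other, so these pairs are not independent. Whether libraries with the same number share a batch cannot be told from them. The replicate block gave 683 genes called over all genes in Sox2 48 h against NMPs, where the 12 numbered libraries without the block gave 1019, and in the other 5 comparisons where it could be fitted it left the number of the 10 genes called as it was. No paired analysis was possible for the 3 comparisons with a group of 1 library, because those libraries share too few numbers. Crossing the numbers of Tbxt 48 h and Sox2 48 h libraries gave 2 of the 10 genes and 404 of all genes, against 2 and 354 with the numbers as given.

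Over all genes, the number called ran from 316 to 3510 in Sox2 48 h against NMPs (1025 as reported), 709 to 4834 in Tbxt 48 h against NMPs (2376), 132 to 1221 in Tbxt 48 h against Sox2 48 h (505), 1456 to 3326 in FGF Sox2+ against Sox2 48 h (3203), 1179 to 4032 in DN against Sox2+ (1826), 1201 to 3908 in FGF/CHIR against FGF (1786) and 558 to 5592 in Tbxt 7 d against FGF/CHIR DN (2167). Scaling shifted the median of all genes from 0.17 to 0.01 (median-of-ratios) and -0.03 (quantile) in FGF Sox2+ against Sox2 48 h, where the higher and lower genes numbered 2361 and 842, against 1720 and 1365 and against 1463 and 1340. In DN against Sox2+ the median was -0.10 and 0.01 with median-of-ratios, with 921 higher and 905 lower against 1206 and 611. In Tbxt 7 d against Tbxt 48 h it was 0.09 and -0.10 with quantile normalization, with 3969 and 3045 against 2954 and 3751. None of the calls of the 10 genes changed direction with scaling. Depth limits FGF Sox2+ replicate 2 most, and the 3 groups with 1 library have no measured spread of their own.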
